A study of Homo sapiens with 9 samples.

Results

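Mitochondrial ribosomal proteins are encoded in the nucleus, made in the cytosol and imported into mitochondria. The genes described here were chosen by name, as MRPL or MRPS followed by a number and at most 1 letter, which gave 76 of the 27671 genes in the count table. They comprised 47 MRPL genes, named for the large subunit, and 29 MRPS genes, named for the small subunit. All 76 passed the filter on low counts and were among the 15551 genes tested, with 198 to 10249 counts per library. RNA was sequenced from A498, a human cell line derived from clear cell renal cell carcinoma (ccRCC), in order to compare the contributions of ARNT and BMAL1 to transcription driven by HIF2α. The cells carried pLKO.1 lentivirus with a control hairpin (shControl), a hairpin against BMAL1 (shBMAL1) or a hairpin against ARNT (shARNT), and all 3 groups were selected and kept in puromycin. Each group had 3 biological replicates, and library totals ranged from 35269851 to 36099075 counts. The labels name no second hairpin per target, so an effect of a depletion and an effect of its hairpin elsewhere cannot be told apart.

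The mitoribosome translates the few mRNAs of mitochondrial DNA, all of which encode subunits of the respiratory chain and ATP synthase. Its small subunit reads the mRNA, and its large subunit joins the amino acids and leads the new peptide towards the inner membrane. It descends from a bacterial ribosome but has lost rRNA and gained proteins, so that some members take the places of bacterial ribosomal proteins and others sit at places specific to mitochondria. ARNT dimerizes with the hypoxia-inducible factors, which shift cells from respiration to glycolysis, while BMAL1 pairs with CLOCK to drive circadian transcription.

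The targeted transcripts and the markers of the line were examined first. ARNT was at 48.1, 50.6 and 52.6 CPM (counts scaled to library sizes adjusted by TMM) in shControl and at 9.31, 9.12 and 9.95 in shARNT. BMAL1, listed as ARNTL, was at 16.7, 15.9 and 16.2 CPM in shControl and at 5.41, 5.54 and 4.12 in shBMAL1. Neither depletion left the other target unchanged: ARNT was also lower in shBMAL1, at 33.0, 33.3 and 30.5 CPM (-0.65, adjusted p = 1.55e-08), and BMAL1 was higher in shARNT, at 23.9, 25.1 and 22.5 CPM (0.55, adjusted p = 8.29e-06). EPAS1, the gene that encodes HIF2α, was lower after either depletion. It was at 331, 338 and 366 CPM in shControl. The shBMAL1 libraries had 225, 219 and 254 CPM (-0.57, adjusted p = 1.54e-08). Levels in shARNT were lower still, at 70.3, 75.6 and 76.7 CPM (-2.22, adjusted p = 2.94e-18). All 6 markers of renal carcinoma cells were detected, with mean levels in shControl from 36.0 CPM for PAX8 to 5973 CPM for VIM. These markers moved with the groups, since 4 of the 6 fell in shARNT and PAX8 rose, and 4 fell and 2 rose in shBMAL1. CA9, a classical HIF target, averaged 76.4 CPM in shControl, 30.2 in shBMAL1 and 1.06 in shARNT. Of 6 markers of other cell types, PTPRC, CD3E, PECAM1, CDH5 and ALB averaged at most 0.352 CPM in shControl. The sixth, CD68, averaged 1864 CPM in shControl, 1792 in shBMAL1 and 142 in shARNT. The part of these marker changes, and of the fall in EPAS1, in the results below was not tested. In bulk RNA, fewer cells with a transcript and less of it per cell cannot be told apart.

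Transcripts of the mitoribosome were mostly higher after depletion of ARNT. Of the 47 MRPL genes, 35 rose, 7 fell and 5 were not called in shARNT against shControl, with a median log2 fold change of 0.60. Of the 29 MRPS genes, 21 rose, 4 fell and 4 were not called, with a median of 0.52. Among all genes tested, 40.5% rose and 41.3% fell in that comparison and the median was -0.01. A call meant an adjusted p (Benjamini-Hochberg, over all 15551 genes) under 0.1 in the quasi-likelihood test of edgeR, and every adjusted p given here is from that test. Library size alone, without TMM, raised the median of all genes by 0.24, and the share of all calls that were higher from 49.6% to 60.5%. The medians were then 0.83 for MRPL and 0.75 for MRPS genes, and their distance from the median of all genes cannot change with such a scaling.

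The members also leaned upwards after depletion of BMAL1, by smaller amounts. In shBMAL1 against shControl, 28 MRPL genes rose, 6 fell and 13 were not called, with a median log2 fold change of 0.21. Among MRPS genes 17 rose, 7 fell and 5 were not called, with a median of 0.23. The background for these counts was 31.9% of all genes higher and 31.5% lower, with a median of 0.00. Both depletions were compared with the same shControl libraries, so their agreement is not independent. A direct contrast of shARNT with shBMAL1, in which the shControl means do not enter although those libraries shared in the scaling and the estimate of the spread, called 30 MRPL genes higher and 11 lower, and 18 MRPS genes higher and 4 lower. In that contrast 40.1% of all genes were higher and 41.1% were lower.

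**Figure D1:**
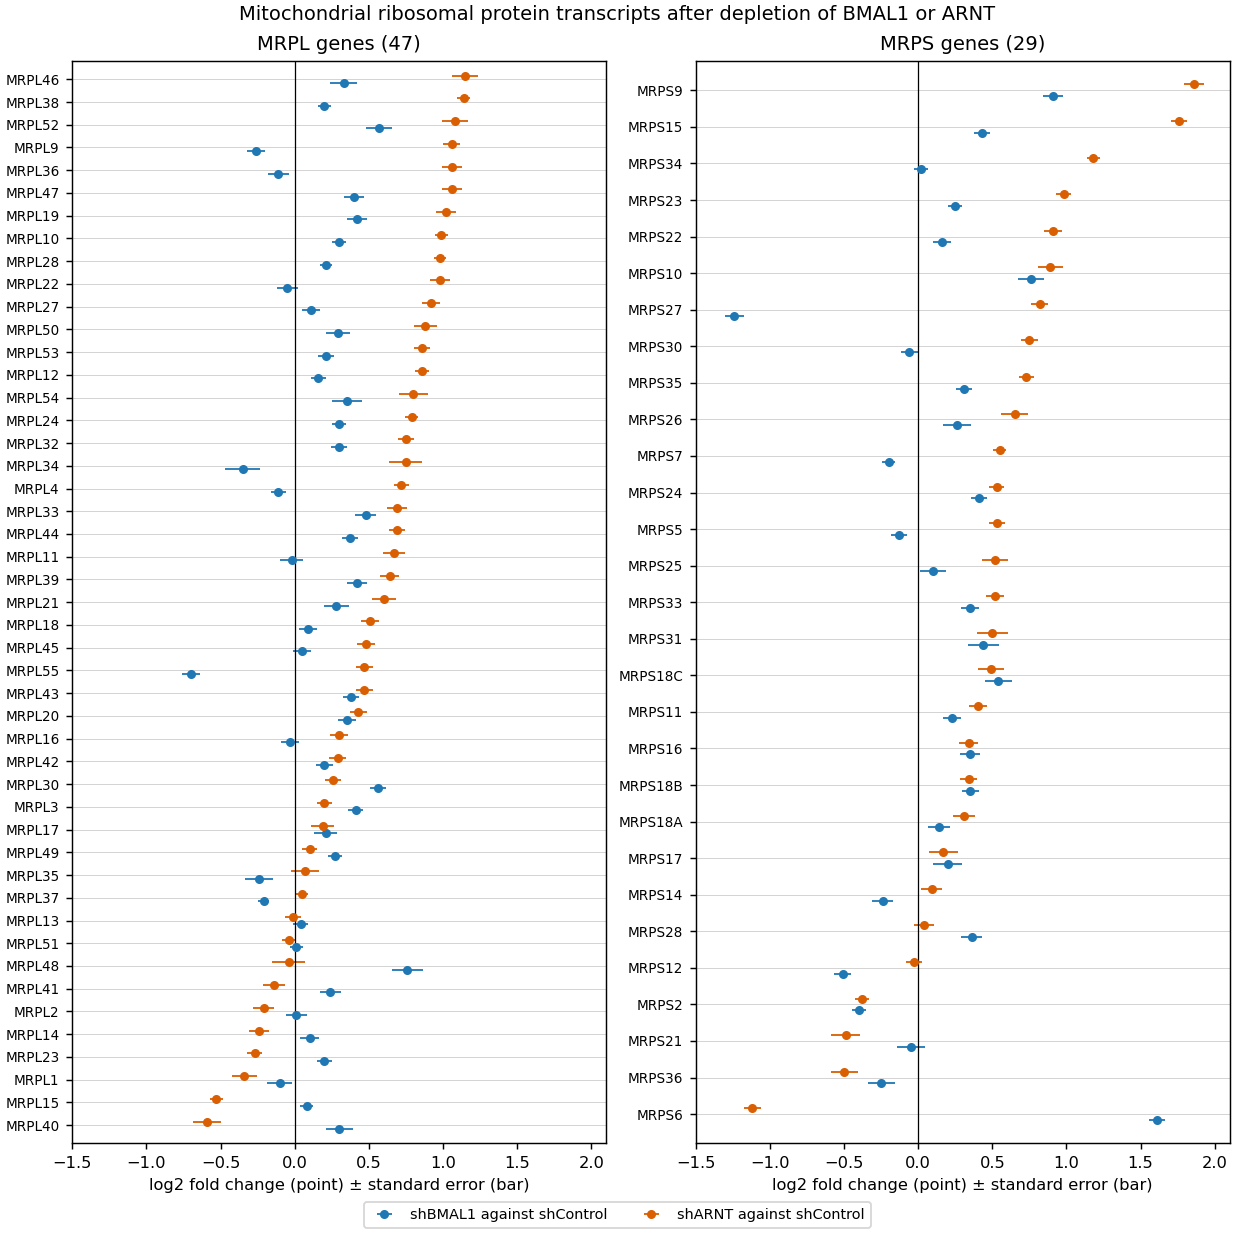
The log2 fold change against shControl is plotted on the x axis for each of the 47 MRPL genes (left) and 29 MRPS genes (right), ordered by the value in shARNT. Points are fitted values and bars are standard errors, in blue for shBMAL1 and orange for shARNT. Most orange points lie to the right of 0, and MRPS6 and MRPS27 have the points farthest apart.

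Summed over its genes, each subunit gave a tight value per library. The MRPL genes together were at 1814, 1819 and 1803 CPM in the shControl libraries, at 1998, 2009 and 2010 in shBMAL1 and at 2516, 2540 and 2535 in shARNT. The groups did not overlap, and the mean of shARNT was 140% of the shControl mean while that of shBMAL1 was 111%. The MRPS genes together were at 999, 993 and 995 CPM in shControl, at 1200, 1252 and 1268 in shBMAL1 and at 1416, 1438 and 1407 in shARNT. A single gene, MRPS6, carried much of the MRPS sum in shBMAL1. Without it the shBMAL1 mean was 106% of shControl in place of 124%, and the shARNT mean was 153% in place of 143%. The ratio of MRPL to MRPS sums lay between 1.81 and 1.83 in shControl, between 1.59 and 1.67 in shBMAL1 and between 1.77 and 1.80 in shARNT. Without MRPS6 it was 2.00 to 2.01, 2.08 to 2.15 and 1.82 to 1.85, so the order of shControl and shBMAL1 turned with this gene. No test was made of these sums, since 3 libraries against 3 give few permutations.

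**Figure D2:**
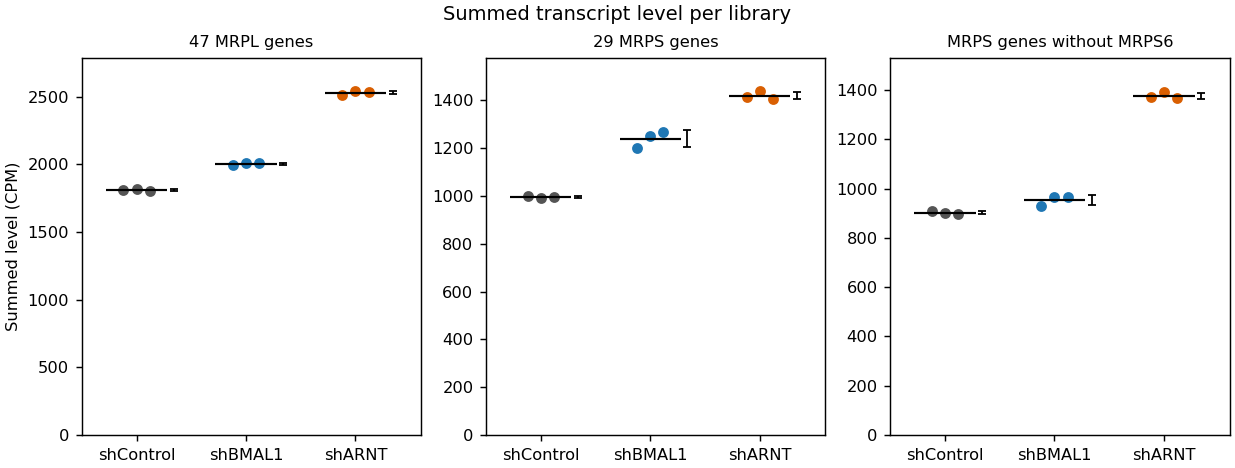
Summed level in CPM of the 47 MRPL genes, the 29 MRPS genes and the MRPS genes without MRPS6, for each of the 9 libraries (points), with the group mean (line) and SD (bar, n = 3). All shARNT libraries lie above the others in each panel, and the gap between shBMAL1 and shControl in the MRPS panel narrows when MRPS6 is left out.

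Members specific to mitochondria and members of bacterial type both leaned upwards. Among 29 mitochondria-specific members, 24 rose and 2 fell in shARNT, with a median log2 fold change of 0.64. Among 46 members of bacterial type, 32 rose and 8 fell, with a median of 0.50. Library size alone left 1 mitochondria-specific member and 4 members of bacterial type lower in shARNT, and 5111 of all 15551 genes. The count for mitochondria-specific members was also 1 with DESeq2 size factors or with the GC or length trend removed. The transcripts of all 10 mitochondria-specific proteins of the small subunit were called higher in shARNT, by 0.34 (MRPS18B) to 1.18 (MRPS34) on the log2 scale. In shBMAL1 the counts were 21 higher and 2 lower for the mitochondria-specific members and 24 higher and 10 lower for the bacterial type. The background was 40.5% of all genes higher and 41.3% lower in shARNT, and 31.9% and 31.5% in shBMAL1. The remaining member, MRPS36, is now known as KGD4, a component of the 2-oxoglutarate dehydrogenase complex, and was put in neither class. It fell by 0.50 in shARNT (adjusted p = 5.59e-05) and by 0.25 in shBMAL1 (adjusted p = 0.0259), and the latter call was lost without shControl replicate 1 or shBMAL1 replicate 2 (adjusted p = 0.117 and 0.108). MRPS30 and MRPS18A sit in the large subunit despite their names. When they were moved there, the large subunit had 37 members higher and 7 lower in shARNT, and the small subunit, without MRPS36, had 19 higher and 3 lower.

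**Figure D3:**
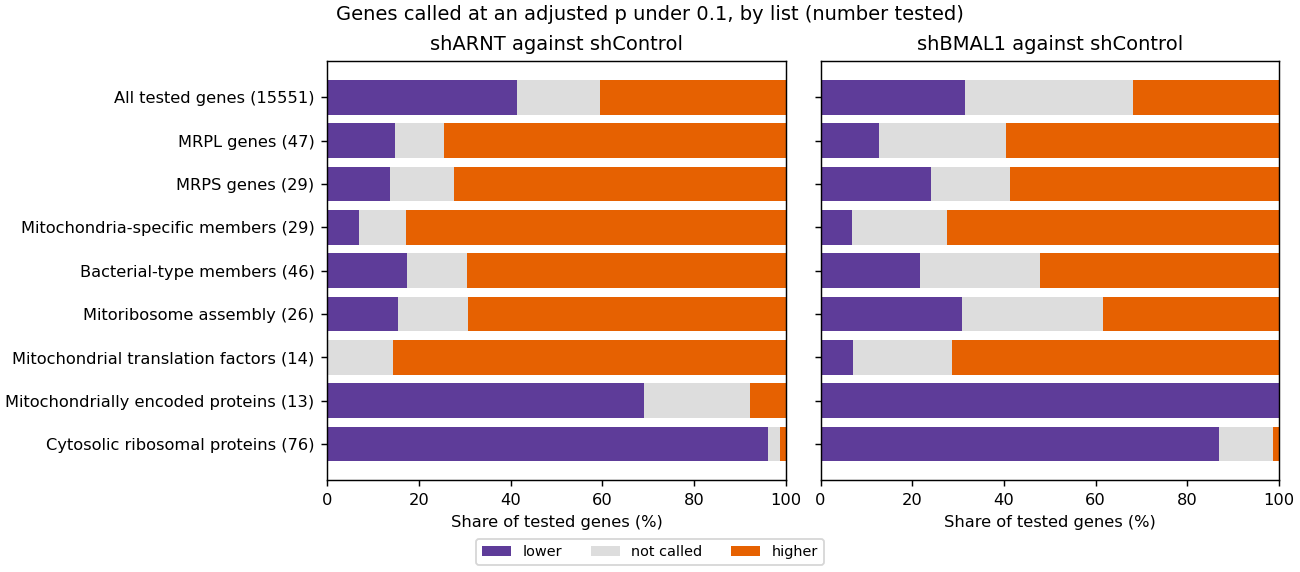
Share of genes in each list (number tested in brackets) that were called lower, not called or called higher at an adjusted p under 0.1, in shARNT (left) and shBMAL1 (right) against shControl. MRPL and MRPS genes were called higher in 74.5% and 72.4% of cases in shARNT, and cytosolic ribosomal protein genes were called lower in 96.1%.

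The promoters of the members were searched for short motifs, because many members moved in the same direction. RefSeq windows from 250 bases before to 50 bases after the start (GRCh38.p14) matched 68 of the 76 members. Each of 5 motifs was counted on both strands. CCGGAAG is the core bound by ETS factors such as GABP, and AAGATGGC is bound by YY1. GCGCATGC belongs to the palindrome of NRF1, a regulator of respiratory genes. ACGTG or GCGTG is the core of the hypoxia response element, and CACGTG, which contains ACGTG, is the E-box bound by BMAL1 with CLOCK and by MYC. The ETS core occurred in 28 of 68 windows (41.2%), against 18.0% of the windows of tested genes and 10.7% of all 27305 windows. The YY1 motif occurred in 20 windows (29.4%), against 4.99% and 3.03%. In 15 of these 20 it began 7 to 36 bases after the start, as read on the strand of the gene. The NRF1 motif was in 8.82% of the members' windows, against 5.29% and 3.27%. The hypoxia core was in 67.6% (against 62.1% and 48.4%) and the E-box in 10.3% (against 10.0% and 7.43%).

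**Figure D4:**
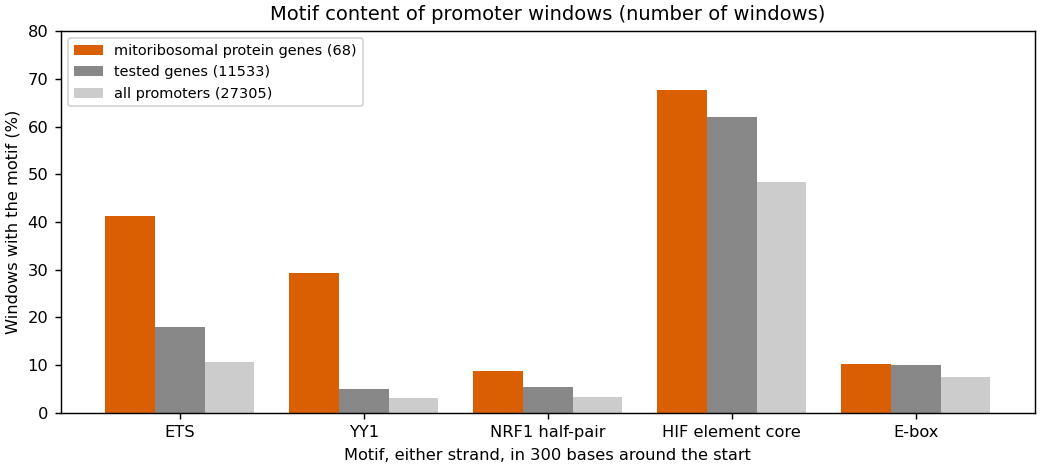
Share of promoter windows of 300 bases that hold each motif on either strand (y axis, %), for the 68 members with a window, the tested genes and all RefSeq promoters provided (numbers in brackets). The members exceed the other bars most for the ETS and YY1 motifs, and the E-box shares of members and tested genes are close.

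Upstream stretches of 6 members follow, chosen after the values were seen as examples of matches and of genes with large changes. Not shown are MRPS9, which rose most in shARNT, MRPS27, and MRPS22, which also has 3 ETS cores. The stretches are written 5′ to 3′ on the strand of the gene, with the letters that match the motif named for each in capitals. MRPS34 (chr16:1773135-1773224, minus strand) holds 3 ETS cores, MRPL17 (chr11:6683361-6683440, minus strand) holds overlapping NRF1 motifs and a further one, and MRPL52 (chr14:22829777-22829846, plus strand) holds 2 YY1 motifs. MRPL36 (chr5:1799838-1799917, minus strand) holds an E-box and a YY1 motif, and both MRPS15 (chr1:36464425-36464544, minus strand) and MRPS6 (chr21:34073418-34073537, plus strand) hold hypoxia cores.
MRPS34: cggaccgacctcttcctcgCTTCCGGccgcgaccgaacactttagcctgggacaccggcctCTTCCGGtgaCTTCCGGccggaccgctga
MRPL17: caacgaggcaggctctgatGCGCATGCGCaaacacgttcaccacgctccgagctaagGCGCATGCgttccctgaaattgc
MRPL52: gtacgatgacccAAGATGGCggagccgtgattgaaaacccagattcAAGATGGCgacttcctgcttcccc
MRPL36: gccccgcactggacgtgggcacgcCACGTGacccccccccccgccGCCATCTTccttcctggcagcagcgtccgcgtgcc
MRPS15: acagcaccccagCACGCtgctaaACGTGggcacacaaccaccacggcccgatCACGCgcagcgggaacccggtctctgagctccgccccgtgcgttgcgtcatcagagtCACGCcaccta
MRPS6: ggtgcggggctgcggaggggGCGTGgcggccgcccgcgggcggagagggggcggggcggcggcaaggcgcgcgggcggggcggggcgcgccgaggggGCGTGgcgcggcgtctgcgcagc

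The hypoxia core was in 36 of 54 windows of members higher in shARNT (66.7%) and in 7 of 8 of members lower there (87.5%). In shBMAL1 it was in 26 of 41 windows of higher members (63.4%) and 8 of 12 of lower members (66.7%). The ETS core was in 21 of 41 windows of members higher in shBMAL1 (51.2%) and in 1 of 12 windows of members lower there (8.33%). In shARNT it was in 23 of 54 windows of higher members (42.6%) and 2 of 8 of lower members (25%). The YY1 motif was in 18 of 54 windows of members higher in shARNT and in none of the 8 of lower members, but in shBMAL1 it was in 11 of 41 and 3 of 12. The E-box was in 5 of 54 and 1 of 8 in shARNT, and in 2 of 41 and 2 of 12 in shBMAL1. The NRF1 motif was in 6 of 54 and 0 of 8, and in 5 of 41 and 0 of 12. Among members not called in shARNT, YY1 was in 2 of 6 windows, ETS in 3 and the hypoxia core in 3. Among those not called in shBMAL1 they were in 6, 6 and 12 of 15. These counts are small and were not tested, and a match of letters is not a bound site.

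The stalk of the large subunit recruits the translation factors that drive elongation, and the transcripts of its 5 proteins all rose in shARNT. They were MRPL10, the base of the stalk, MRPL11, MRPL12, which forms its mobile arm, MRPL53 and MRPL54. MRPL53 shares 492 of its 496 exonic bases with CCDC142 on the same strand, so that their reads may not be told apart, and CCDC142 rose by 0.72 in shARNT and fell by 0.37 in shBMAL1. MRPL12 was at 44.9, 46.7 and 49.2 CPM in shControl, at 51.9, 52.7 and 52.9 in shBMAL1 and at 84.3, 86.6 and 85.3 in shARNT. The groups were in the same order in every library, and the log2 fold change was 0.86 in shARNT (SE 0.0482, adjusted p = 1.28e-12) and 0.16 in shBMAL1 (SE 0.0492, adjusted p = 0.00831). MRPL10 rose by 0.99 in shARNT and 0.30 in shBMAL1. Over the 5 genes, log2 fold changes ran from 0.67 to 0.99 in shARNT and from -0.02 to 0.35 in shBMAL1, where MRPL11 alone was not called (adjusted p = 0.831). All 5 were called higher in shARNT than in shBMAL1, by 0.46 to 0.70. For comparison, 40.5% of all genes and 74.5% of the MRPL genes were higher in shARNT against shControl. In shBMAL1 against shControl the shares were 31.9% and 59.6%, and in shARNT against shBMAL1 they were 40.1% and 63.8%.

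Transcripts of proteins around the exit of the peptide tunnel rose in all but 1 case in shARNT. Of MRPL17, MRPL22, MRPL23, MRPL24, MRPL39, MRPL44, MRPL45 and MRPL47, 7 were higher and MRPL23 was lower. These are 87.5% and 12.5%, against 74.5% and 14.9% of the MRPL genes and 40.5% and 41.3% of all genes. MRPL47 changed most, from 23.1, 22.7 and 20.5 CPM in shControl to 45.4, 43.4 and 49.8 in shARNT (log2 fold change 1.06, adjusted p = 6.6e-12), with 29.5, 28.2 and 29.8 CPM in shBMAL1. MRPL22 was about as high, with 0.98 in shARNT, but was not called in shBMAL1 (-0.05, adjusted p = 0.565). MRPL45, which holds the ribosome at the inner membrane, rose by 0.48 in shARNT and had a log2 fold change of 0.05 in shBMAL1 (adjusted p = 0.479).

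MRPL23 and MRPL17 departed from that pattern. MRPL23 was at 57.4, 56.1 and 58.0 CPM in shControl, at 66.3, 66.9 and 63.8 in shBMAL1 and at 48.2, 49.0 and 45.3 in shARNT. It thus rose in shBMAL1 (0.20, adjusted p = 0.00174) and fell in shARNT (-0.27, adjusted p = 6e-05), a fall that was not called with library size alone (-0.03, adjusted p = 0.592). Its deposited counts were partly fractions, as were those of MRPS2, MRPS9, MRPS24 and MRPL43. For MRPL17 the CPM of shControl (64.9, 72.2 and 62.3) and shARNT (64.1, 78.8 and 84.0) overlapped. Its call in shARNT (0.19, adjusted p = 0.0352) was lost without shControl replicate 3, shARNT replicate 2 or shARNT replicate 3, with adjusted p from 0.118 to 0.219, and that in shBMAL1 (0.21, adjusted p = 0.0307) without shControl replicate 3 or shBMAL1 replicate 1 (adjusted p = 0.132 and 0.142).

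The central protuberance is the crown of the large subunit that faces the small subunit. Of the regions described it had the widest range, from -0.59 to 1.15 in shARNT and from -0.7 to 0.76 in shBMAL1. Of its 6 genes, 4 were higher and 1 lower in each depletion (66.7% and 16.7%). Among all members 73.7% were higher and 14.5% lower in shARNT, and 59.2% and 17.1% in shBMAL1. Among all genes these shares were 40.5% and 41.3%, and 31.9% and 31.5%. MRPL46 was at 12.6, 10.9 and 11.1 CPM in shControl and at 27.1, 24.8 and 24.7 in shARNT, which is 1.15 on the log2 scale (SE 0.0873, adjusted p = 2e-10). MRPL38 was at 59.7, 57.9 and 58.5 CPM in shControl and at 128, 132 and 128 in shARNT, which is 1.14 on the log2 scale (SE 0.0444, adjusted p = 3.48e-15). In shBMAL1 both rose less, by 0.33 (MRPL46) and 0.20 (MRPL38). The gene of MRPL46 lies head to head with that of MRPS11 (GRCh37, chr15:89002708-89010621 on the minus strand and chr15:89010684-89024007 on the plus strand), and MRPS11 rose by 0.40 in shARNT and 0.23 in shBMAL1.

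MRPL40, MRPL48 and MRPL55 of the same region went other ways. MRPL55, the homolog of bacterial L31, was at 33.1, 32.5 and 31.6 CPM in shControl, at 19.8, 21.0 and 18.9 in shBMAL1 and at 46.2, 45.7 and 42.4 in shARNT. It fell by 0.70 in shBMAL1 (adjusted p = 8.54e-09) and rose by 0.47 in shARNT (adjusted p = 4.4e-07), and the depletions differed by 1.17 (SE 0.0611, adjusted p = 4.47e-13). MRPL40 had the reverse order, with 26.6, 26.0 and 21.3 CPM in shControl, 27.4, 32.3 and 31.3 in shBMAL1 and 18.3, 16.4 and 14.6 in shARNT. Its log2 fold changes were 0.30 in shBMAL1 (adjusted p = 0.00797) and -0.59 in shARNT (adjusted p = 1.06e-05), and -0.89 between them (adjusted p = 2.82e-08). MRPL48, the least abundant member with a mean of 6.40 CPM in shControl, rose in shBMAL1 (0.76, adjusted p = 4.27e-06), had -0.04 in shARNT (adjusted p = 0.764) and was 0.80 lower in shARNT than in shBMAL1 (adjusted p = 8.1e-07). MRPL18, which carries RNA at the protuberance, rose by 0.51 in shARNT and had 0.09 in shBMAL1 (adjusted p = 0.212), where it was called with library size alone (adjusted p = 0.0591) or without shBMAL1 replicate 1 (adjusted p = 0.0945).

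Transcripts of other proteins of the large subunit showed the same range. MRPL9 was at 34.6, 36.7 and 39.3 CPM in shControl, at 29.4, 30.3 and 32.8 in shBMAL1 and at 76.3, 76.7 and 76.8 in shARNT. It rose by 1.06 in shARNT (adjusted p = 6.8e-13) and fell by 0.26 in shBMAL1 (adjusted p = 0.000929). MRPL36, a small zinc-binding protein, rose by 1.06 in shARNT (adjusted p = 9.68e-12) and had -0.11 in shBMAL1 (adjusted p = 0.177). It was called lower in shBMAL1 with the length trend removed (-0.15, adjusted p = 0.0756). MRPL34 rose by 0.75 in shARNT (adjusted p = 3.79e-06), and its fall of 0.35 in shBMAL1 (adjusted p = 0.0153) was not called without shBMAL1 replicate 2 (adjusted p = 0.112). MRPL52 rose in both, by 1.08 in shARNT (adjusted p = 4.29e-10) and by the smaller 0.57 in shBMAL1 (adjusted p = 1.59e-05). MRPL15, close to the peptidyl transferase centre, fell in shARNT. It was at 81.5, 81.5 and 85.3 CPM in shControl, at 86.5, 88.2 and 86.8 in shBMAL1 and at 56.9, 56.9 and 58.7 in shARNT (-0.53, SE 0.0444, adjusted p = 1.04e-09).

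The largest rises of all members in shARNT were those of MRPS9 and MRPS15, both homologs of bacterial proteins that bind small subunit rRNA. MRPS9 was at 12.3, 13.7 and 12.4 CPM in shControl, at 23.4, 25 and 23.5 in shBMAL1 and at 48.0, 46.7 and 44.7 in shARNT. Its log2 fold change was 1.86 in shARNT (SE 0.0656, adjusted p = 7.17e-16) and 0.91 in shBMAL1 (SE 0.0681, adjusted p = 6.6e-10). MRPS15 was at 27.4, 30.2 and 27.0 CPM in shControl, at 36.7, 38.1 and 39.0 in shBMAL1 and at 93.8, 98.1 and 94.5 in shARNT. Both genes were in the same order in every library, and both differed between the depletions, MRPS9 by 0.96 and MRPS15 by 1.33 (adjusted p = 1.27e-11 and 5.16e-15). MRPS34, whose promoter holds the 3 ETS cores shown above, was at 62.4, 64.3 and 66.3 CPM in shControl and at 147, 143 and 147 in shARNT (1.18, adjusted p = 1.9e-15). In shBMAL1 MRPS34 was at 66.5, 62.9 and 66.2 CPM, which overlapped shControl, with 0.02 on the log2 scale (SE 0.0452, adjusted p = 0.743), although it was called there once a trend with GC content was removed (0.16, adjusted p = 0.00452).

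MRPS6 and MRPS27 moved in opposite directions in the depletions by more than any other member. In all, 11 of the 76 members (14.5%) were called in opposite directions against shControl, and 19.4% of all genes tested were. MRPS6, the homolog of bacterial S6, was at 90.8, 90.8 and 98.9 CPM in shControl, at 270, 285 and 301 in shBMAL1 and at 44.1, 45.8 and 39.2 in shARNT. It rose by 1.61 in shBMAL1 (SE 0.0551, adjusted p = 4.48e-15), fell by 1.12 in shARNT (SE 0.0577, adjusted p = 3.5e-13) and differed by -2.73 between them (adjusted p = 2.19e-19). The annotation places exons of SLC5A3, a transporter of myo-inositol, on the same strand within MRPS6, where they share 168 of its 931 exonic bases. SLC5A3 was at 159, 148 and 166 CPM in shControl, at 193, 171 and 194 in shBMAL1 and at 12.7, 12.2 and 13.8 in shARNT, and the part of shared reads in the values of MRPS6 was not tested. MRPS27, a protein with pentatricopeptide repeats specific to mitochondria, showed the reverse. It was at 36.2, 36.4 and 35.0 CPM in shControl, at 15.0, 14.1 and 16.4 in shBMAL1 and at 62.9, 65.8 and 60.8 in shARNT. It fell by 1.24 in shBMAL1 (SE 0.0648, adjusted p = 2.53e-12), rose by 0.82 in shARNT (SE 0.0584, adjusted p = 7.06e-11) and differed by 2.06 between them (SE 0.0631, adjusted p = 7.41e-17). No other gene of the table overlapped its exons.

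**Figure D5:**
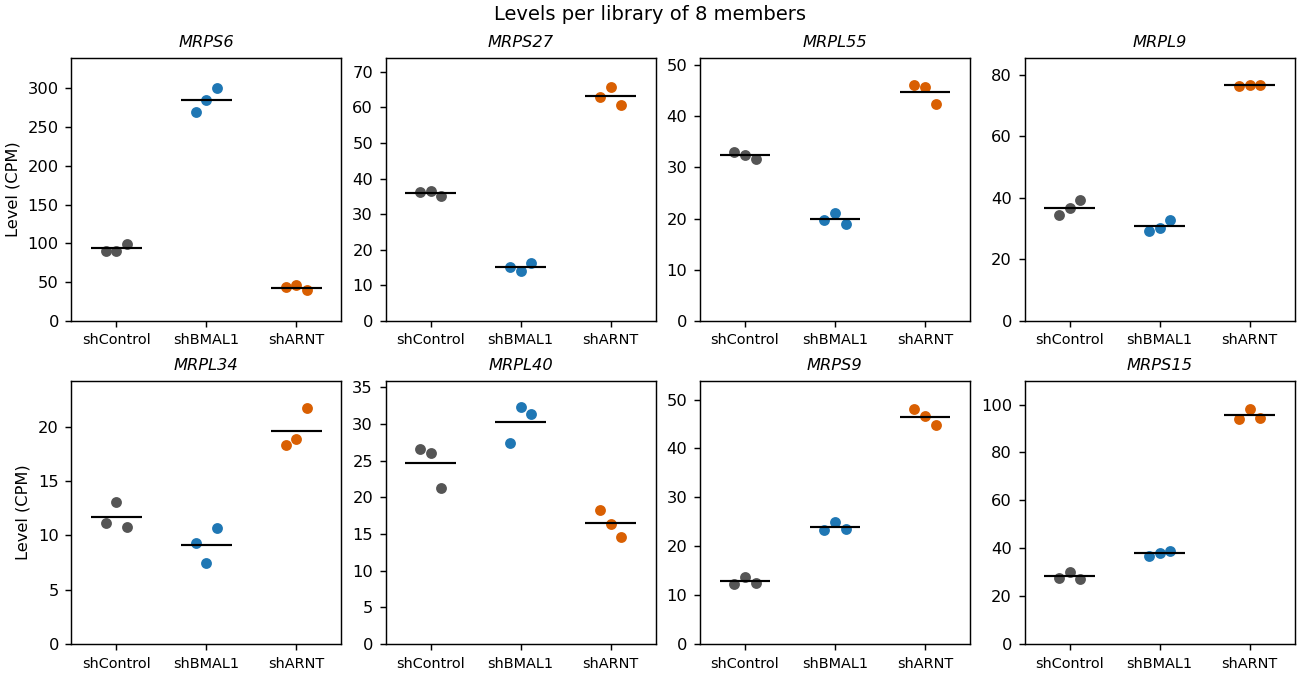
Level in CPM in each of the 9 libraries (points) with the group mean (line), for MRPS6, MRPS27, MRPL55, MRPL9, MRPL34 and MRPL40, which were called in opposite directions in the depletions, and for MRPS9 and MRPS15, which rose most in shARNT. In MRPS6 the shBMAL1 libraries lie between 270 and 301 CPM and the shARNT libraries between 39.2 and 45.8.

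Further small subunit members fell. MRPS12, part of the decoding centre and known for its role in fidelity, was at 41.4, 41.6 and 43.5 CPM in shControl, at 28.3, 29.8 and 30.4 in shBMAL1 and at 42.3, 41.4 and 40.1 in shARNT. The shBMAL1 libraries were below all others (-0.51, adjusted p = 1.32e-07), whereas shARNT overlapped shControl (-0.03, adjusted p = 0.604). MRPS2 fell by nearly the same amount in both, by 0.38 in shARNT (adjusted p = 6.02e-07) and by 0.40 after depletion of BMAL1 (adjusted p = 8.19e-07). The difference between them was 0.02 (SE 0.0496, adjusted p = 0.725), but 0.21 with library size alone (adjusted p = 0.000816). MRPS21 fell by 0.49 in shARNT (adjusted p = 0.000113) and had -0.05 in shBMAL1 (adjusted p = 0.689). MRPS10 rose in both, by 0.89 and 0.76 (adjusted p = 7.28e-09 and 2.63e-07). MRPS28 rose in shBMAL1 (0.36, adjusted p = 0.000168) and had 0.04 in shARNT (adjusted p = 0.609). It was called higher in shARNT with library size alone (0.28, adjusted p = 0.00102) or the length trend removed (0.14, adjusted p = 0.0771). MRPS30 rose in shARNT (0.75, adjusted p = 2.32e-10) and had -0.06 in shBMAL1 (adjusted p = 0.433).

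MRPS18A, MRPS18B and MRPS18C are 3 paralogs related to a single bacterial protein. Only MRPS18C takes the bacterial place and was counted as bacterial type, and the others sit at places specific to mitochondria and were counted there. In shARNT they rose by 0.31, 0.34 and 0.49, in that order. In shBMAL1 MRPS18B rose by 0.35 and MRPS18C by 0.54, and MRPS18A had 0.14 (adjusted p = 0.111), which was called with library size alone, with the GC trend removed or without shBMAL1 replicate 1. MRPS18A and MRPS18C share 60.6% and 83.6% of their exonic bases with RSPH9 and ABRAXAS1 on the opposite strand. RSPH9 averaged at most 0.118 CPM in any group, while ABRAXAS1 (listed as FAM175A) averaged 13.4 CPM in shControl and 4.48 in shARNT.

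Levels per kilobase of transcript, which allow genes to be compared, spanned a wide range in shControl. The median was 22.8 CPM per kb, and MRPL37, MRPL51 and MRPS24 were highest at 114, 111 and 104. MRPL51 did not pass the test, with 102, 102 and 97.0 CPM in shControl, 101, 102 and 98.8 in shBMAL1 and 95, 97.8 and 100 in shARNT, but library size alone called it higher in shARNT against shControl (0.20, adjusted p = 0.000269), and both that scaling and removal of the length trend called it higher in shARNT than in shBMAL1. MRPL42, MRPL19 and MRPS25 were lowest at 2.1, 2.54 and 3.04 CPM per kb, but their annotated transcripts are long (15557, 7825 and 4572 bases), so these 3 values depend on the isoform. MRPS24 shares 90.9% of its exonic bases with the read-through gene URGCP-MRPS24, which averaged at most 0.696 CPM. In all, 16 members overlapped exons of another gene in the table. The 60 without such overlap had medians of 0.52 in shARNT and 0.21 in shBMAL1, as did all 76.

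Transcripts of mitoribosomal proteins that carry other names were 6 higher and 1 lower of 7 in shARNT. These are 85.7% and 14.3%, against 40.5% and 41.3% of all genes. AURKAIP1 (mS38) was at 35.2, 31.7 and 31.5 CPM in shControl and at 74.3, 72.1 and 72.9 in shARNT (1.16, adjusted p = 1.7e-13), and GADD45GIP1 rose by 0.77, MRPL58 (listed as ICT1) by 0.52, CHCHD1 by 0.46, PTCD3 by 0.34 and MRPL57 (listed as MRP63) by 0.28. DAP3, a GTP-binding protein of the small subunit, fell by 0.10 (adjusted p = 0.0522), a call lost in 7 refits (without shControl replicate 2 or 3, without shARNT replicate 1 or 3, and with trends removed) with adjusted p from 0.103 to 0.328 and turned to a rise of 0.14 with library size alone. In shBMAL1, 4 of the 7 rose and 2 fell (57.1% and 28.6%, against 31.9% and 31.5% of all genes). MRPL58 rose by 0.62 and CHCHD1 by 0.47, whereas AURKAIP1 fell by 0.15 (adjusted p = 0.0329) and PTCD3 by 0.10 (adjusted p = 0.0741), and neither call held throughout. That of AURKAIP1 was lost without shControl replicate 1 (adjusted p = 0.18) or shBMAL1 replicate 1 (adjusted p = 0.124). It was also lost with library size alone (adjusted p = 0.137) and with the GC trend removed (-0.01, adjusted p = 0.881). That of PTCD3 was lost without any 1 shControl library or shBMAL1 replicate 2 or 3, with adjusted p from 0.115 to 0.214. Library size alone (adjusted p = 0.336) and no filter on low counts (adjusted p = 0.113) also ended it.

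Transcripts of factors that build the mitoribosome or work with it leaned the same way in shARNT. Of 26 assembly factors, 18 rose and 4 fell in shARNT, and 10 rose and 8 fell in shBMAL1. In shARNT these are 69.2% and 15.4%, against 40.5% and 41.3% of all genes. In shBMAL1 they are 38.5% and 30.8%, near the 31.9% and 31.5% of all genes. The GTPase MTG1, which acts late in large subunit assembly, rose from 26.8, 29.5 and 31.2 CPM to 112, 106 and 106 in shARNT (1.89, adjusted p = 5.76e-17) and was at 25.8, 24.6 and 24.9 in shBMAL1 (-0.22, adjusted p = 0.00468). MRM3 (listed as RNMTL1), a methyltransferase of large subunit rRNA, rose by 1.39 in shARNT and had -0.08 in shBMAL1 (adjusted p = 0.305). YBEY fell by 1.69 in shARNT (adjusted p = 2.05e-10). TFB1M, which methylates small subunit rRNA, rose by 1.22 in shARNT and 1.03 in shBMAL1, and the GTPase GTPBP10 rose by 0.57 and 0.67.

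Of 14 translation factors, 12 rose and none fell in shARNT, and 10 rose and 1 fell in shBMAL1. The shares higher are 85.7% and 71.4%, against 40.5% and 31.9% of all genes, of which 41.3% and 31.5% were lower. TUFM, the elongation factor that delivers tRNA, was at 251, 254 and 252 CPM in shControl, at 230, 236 and 243 in shBMAL1 and at 767, 780 and 788 in shARNT. Its log2 fold change was 1.63 in shARNT (SE 0.0353, adjusted p = 2.9e-19) and -0.09 in shBMAL1 (adjusted p = 0.0268), and the latter was not called with library size alone (adjusted p = 0.249), with the GC trend removed or without shBMAL1 replicate 1. Its exchange factor TSFM rose by 0.77 in shARNT and had -0.09 in shBMAL1 (adjusted p = 0.286). TSFM was called lower in shBMAL1 without shBMAL1 replicate 3 (adjusted p = 0.0365) or with the GC trend removed (adjusted p = 0.0993). The translocase GFM1 rose by 1.12 in shARNT and 0.55 in shBMAL1, and GUF1 rose by 0.53 and 0.72.

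The messages that the mitoribosome reads did not rise with the transcripts of its proteins. Of the 13 mitochondrially encoded protein transcripts, 9 fell and 1 rose in shARNT (median -0.37), and all 13 fell in shBMAL1 (median -0.34). COX1, the largest of them by level, was at 19241, 24409 and 22933 CPM in shControl, at 16617, 15456 and 15970 in shBMAL1 and at 14561, 14190 and 12332 in shARNT. It fell by 0.47 in shBMAL1 (adjusted p = 3.01e-06) and by 0.70 in shARNT (adjusted p = 4.34e-09). Under library size alone, 7 of the 13 fell and 4 rose in shARNT, where 5111 of all 15551 genes fell and 7826 rose. With TMM scaling, 41.3% of all genes were lower and 40.5% higher in shARNT, and 31.5% were lower in shBMAL1. Cytosolic ribosomal protein genes, found by the names RPL and RPS, fell. Of the 76 tested, 73 were lower in shARNT (median -0.89) and 66 in shBMAL1 (median -0.31). Under library size alone 70 and 60 were lower, as were 5111 and 4366 of all 15551 genes. The members and these lists were not compared by a test.

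Of 12 genes that serve mitochondrial DNA and its RNA, 8 rose and 1 fell in shARNT (none fell with library size alone). These are 66.7% and 8.33%, against 40.5% and 41.3% of all genes. With library size alone, 5111 of all 15551 genes fell in shARNT. In shBMAL1 4 of the 12 rose and 4 fell, or 33.3% each way, which is near the shares of all genes. LRPPRC, which stabilizes mitochondrial mRNAs, was at 241, 231 and 239 CPM in shControl, at 182, 183 and 185 in shBMAL1 and at 556, 559 and 569 in shARNT, and its partner SLIRP rose in both, by 0.83 in shARNT and 0.58 in shBMAL1. LRPPRC thus fell by 0.37 in shBMAL1 and rose by 1.24 in shARNT, a difference of 1.61 (adjusted p = 3.43e-19). TFAM, which packages mitochondrial DNA, rose by 0.67 in shARNT and fell by 0.33 in shBMAL1, and the helicase TWNK (listed as C10orf2) rose by 1.04 and 0.20. The polymerase POLG fell by 0.66 in shBMAL1 (adjusted p = 6.83e-10) and had 0.06 in shARNT (adjusted p = 0.285).

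Among 10 nuclear regulators of mitochondrial genes, 8 rose and 1 fell in shARNT, and 2 rose and 3 fell in shBMAL1 (1 fell with library size alone). Of all genes, 40.5% rose and 41.3% fell in shARNT, so a larger share of the regulators rose there and a smaller share fell. The shBMAL1 shares of 20.0% and 30.0% do not exceed those of all genes. The regulators included the factors whose motifs were counted above. NRF1 rose by 0.86 in shARNT (adjusted p = 3.93e-09) and had 0.08 in shBMAL1 (adjusted p = 0.453). GABPA rose by 0.80 in shARNT (adjusted p = 9.67e-07) and had -0.10 in shBMAL1 (adjusted p = 0.466), and YY1 rose by 0.29 in shARNT (adjusted p = 1.72e-05) and had 0.02 in shBMAL1 (adjusted p = 0.764). MYC was at 94.4, 91.6 and 93.5 CPM in shControl and fell to 45.3, 46.5 and 46.1 in shARNT (-1.02, adjusted p = 1.92e-14). The coactivators PPARGC1A and PPARGC1B were near the lower limit of detection, at 0.343 and 1.07 CPM on average in shControl. PPARGC1B rose by 1.42 in shARNT (adjusted p = 2.91e-05) and PPARGC1A by 1.96 in shBMAL1 (adjusted p = 0.000176).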

How the data were processed

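Stranded mRNA libraries of 9 A498 samples were read from both ends on a BGISEQ-500. According to the study's methods the authors aligned reads to GRCh37 with SeqMan NGen and exported counts with ArrayStar. The submitters' processing notes instead name hg38, STAR and DESeq2. The order of rows fits GRCh37 in 22 of 28 neighbouring pairs that the builds order differently, so positions of genes are from GENCODE on GRCh37, and promoter windows are from RefSeq on GRCh38.p14. The deposited values are expected counts per gene, without normalization. A value of 0.05 marked no reads and was set to 0, rows with the same name were summed, and counts were rounded. How reads with several alignments or strand were handled is not given in the sources used here.

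All 9 libraries entered a single quasi-likelihood fit of edgeR 4.0.16 in R 4.3.3, with group as the only factor, TMM scaling and filterByExpr. The threshold for a call was 0.1 for p adjusted by Benjamini-Hochberg over 15551 genes. The script was tested on simulated data. Levels are CPM relative to TMM-scaled library sizes, and levels per kilobase use the length of the canonical transcript. Lists were described by counts and medians without a set test. Libraries of a group differed by more than sampling noise (chi-square per gene 3.93 to 7.25), so none were merged. Alternatives were other scalings (DESeq2 1.42.0 size factors, library size alone), no filter, the DESeq2 Wald test, only the 6 libraries compared, a replicate block, halved counts, removal of trends with GC content or length, stricter calls, and leaving out each library.

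Single genes were named by a rule: for each contrast the 5 largest falls and 5 largest rises among members called without overlap in CPM, members chosen by role (stalk, tunnel exit, central protuberance, MRPS18 paralogs, MRPS12, MRPS28, MRPS30), the 3 most and 3 least abundant per kilobase in shControl, the proteins under other names, and the 2 largest called changes of each accompanying list in each contrast. MRPL4, MRPL13, MRPL41, MRPS5, MRPS7, MRPS11, MRPS16, MRPS17, MRPS22, SLC5A3, COX1, NRF1, GABPA and YY1 were named after their values were seen. So were the genes that overlap a member, MRPS36 in its class and the promoter stretches printed. The members and lists were chosen with earlier results of these data known.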

Additional observations from a re-analysis of the deposited data

Results flagged for a closer look

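The direct contrast of shARNT with shBMAL1 tested the difference between the depletions, in the same fit of 9 libraries, and it called 11 large subunit members lower and 30 higher, and 4 small subunit members lower and 18 higher. Of these, 11 members (14.5% of 76) were also called in opposite directions against shControl, a smaller share than the 19.4% of all genes tested. Their log2 fold changes of shARNT against shBMAL1 were 2.06 for MRPS27, 1.31 for MRPL9, 1.17 for MRPL55, 1.10 for MRPL34, 0.84 for MRPL4, 0.75 for MRPS7 and 0.67 for MRPS5, which were higher in shARNT. The others were lower in shARNT, with -2.73 for MRPS6, -0.89 for MRPL40, -0.47 for MRPL23 and -0.38 for MRPL41. By the quasi-likelihood test of edgeR, 4 of these calls against shControl were lost when certain libraries were left out 1 at a time. In shBMAL1, MRPL4 was not called without shControl replicate 2 or shBMAL1 replicate 2 or 3 (adjusted p from 0.153 to 0.248), MRPS5 without shControl replicate 1 or shBMAL1 replicate 2 (0.157 and 0.114), and MRPL34 without shBMAL1 replicate 2 (0.112). In shARNT, MRPL41 was not called without shControl replicate 1 or 2 or shARNT replicate 2 or 3 (adjusted p from 0.121 to 0.231). With library size alone, MRPL4, MRPS5, MRPL23 and MRPL41 also lost the call against shControl in 1 depletion. MRPL4 lost it with the GC trend removed (0.01, adjusted p = 0.827) and without the filter on low counts (adjusted p = 0.135). MRPL41 lost it with the GC trend removed (-0.03, adjusted p = 0.647), with the length trend removed (0.01, adjusted p = 0.925), with DESeq2 size factors (adjusted p = 0.101) and in the DESeq2 Wald test (adjusted p = 0.122). Groups of 3 libraries were too small to look for outlying samples.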

How the results depend on the processing

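Library size alone gave 2 MRPL genes lower in shARNT and 7 lower in shARNT against shBMAL1. Of all 15551 genes it left 5111 and 5287 lower in these comparisons. Medians with library size alone were 0.83 (MRPL) and 0.75 (MRPS) in shARNT, 0.25 (MRPL) in shBMAL1, and 0.52 (MRPL) and 0.37 (MRPS) between the depletions. That scaling also turned the sign of MRPL13 (0.22), MRPL51 (0.20), MRPS12 (0.21) and DAP3 (0.14) in shARNT and of MRPL13 (0.14), MRPL17 (0.17), MRPL51 (0.15), MRPS16 (0.18) and MRPS18B (0.18) between the depletions, all called higher. With the length trend removed the MRPL medians were 0.69 in shARNT and 0.48 between the depletions, the MRPS median there was 0.29, and MRPL51 turned to 0.10. With the GC trend removed, with or without the replicate block, the MRPL median was 0.26 in shBMAL1, and the medians between the depletions were 0.40 (MRPL) and 0.25 (MRPS). A required fold of at least 1.5 left 8300, 3657 and 8176 genes called in shARNT, shBMAL1 and between the depletions. In that order 3813, 1735 and 3753 of these genes were higher, and 4487, 1922 and 4423 were lower. The required fold left 1 MRPL gene lower and 24 higher in shARNT, 1 lower and 1 higher in shBMAL1, and 3 lower and 17 higher between the depletions. For MRPS genes it left 1 lower and 10 higher, 1 lower and 3 higher, and 1 lower and 9 higher. In shBMAL1 the 4 of 76 members left higher were a smaller share than the 1735 of 15551 genes. Members without exon overlap, an alternative chosen after seeing the data, had medians of 0.56 (MRPL, shARNT) and 0.25 (MRPS, between the depletions). Leaving out each library gave MRPL medians of 0.56 to 0.62 in shARNT and 0.30 to 0.38 between the depletions, MRPS medians of 0.14 to 0.23 between the depletions, and 3 to 6 MRPL genes lower in shBMAL1, with 3 without shBMAL1 replicate 2.

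Replicate numbers did not pair the samples: deviations of libraries with the same number correlated at -0.041 to 0.075. The replicate block changed 1 member call, that of MRPS17 in shBMAL1, and no other. Leaving out single libraries changed the call of 5 members in shARNT, 13 in shBMAL1 and 5 between the depletions, and no member was called with the opposite sign in any alternative. Counts of 198 or more per library set the precision, which is lowest for members such as MRPL48 and MRPL34. Whether reads or pairs were counted is not given in the sources used here, and halved counts changed no member call. The causes of these shifts were not tested.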
